A study of Mus musculus with 8 samples.

Results

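Interferon-induced genes that are small and, for the most part, encode membrane proteins were chosen by their symbols in the count table: Ifitm1, Ifitm2, Ifitm3, Bst2, Ifi27, Isg20 and Ifi35, which make 7 of 49997 genes. They were measured by RNA-seq in EO771, a breast cancer line of the mouse, with 8 libraries. Vehicle cells (2% DMSO in saline, replicates 4 and 5) were compared with cells given 100 nM 12-HETE (a lipid that 12-lipoxygenase makes from arachidonic acid) over 48 h (replicates 4 and 5). Cells transduced with an empty vector (replicates 1 and 2) were compared with cells transduced with an ADAR1 p150 overexpression vector (replicates 1 and 2), where ADAR1 p150 is the interferon-inducible long form of the enzyme that edits adenosine to inosine in double-stranded RNA. The question was how each treatment moves interferon-stimulated genes. Each group had 2 libraries of 1 cell line, the labels do not say whether these came from separate cultures, and p-values then measure only the spread between these libraries, which may be technical.

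Interferons released by a cell signal through a receptor, JAK kinases and STAT factors, which switch on a broad set of antiviral genes. IFITM proteins are small membrane proteins that hinder the fusion of viruses with cell membranes, Bst2 (tetherin) is a membrane protein that holds budding virions at the cell surface, and Ifi27 encodes a small hydrophobic protein of intracellular membranes. Isg20 is an exonuclease that degrades RNA and Ifi35 is a leucine zipper protein that partners Nmi. Neither of the last pair is a membrane protein, so the members share interferon inducibility rather than a place in the membrane.

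The total count per library lay between 1101767 and 1537037, and 3 counts amounted to 1.95 to 2.72 CPM (the count divided by the library total and put on a standard scale). A single gene, AY036118, took between 44.4% and 50.3% of each library, which left the rest for all other genes. Of the epithelial markers, 4 of 5 had counts, with summed counts from 176 to 341 per library, and Cdh1 was at 0 in every library. The summed leukocyte markers ranged from 18 to 22 in the vehicle group, 11 to 13 in the 12-HETE group, 22 to 24 in the vector group and 17 to 26 in the ADAR1 p150 group, and Cd3e was at 0 in every library. The leukocyte sum was thus lower in both 12-HETE libraries than in both vehicle libraries, and its part in the results was not tested. Nearly all of it was Cd68, with 22 and 17 counts with vehicle against 10 and 12 with 12-HETE. The fibroblast markers, with Lum at 0, summed to between 8 and 60, while the endothelial markers summed to 10 and 8 in the vehicle libraries, 3 and 1 in those given 12-HETE, 6 and 9 in the vector libraries and 2 and 11 in those overexpressing ADAR1 p150. Of these, Cdh5 had 9 and 7 counts in the vehicle libraries and 0 in both given 12-HETE. Pecam1 had 1 and 0 counts with vehicle against 2 and 0 with 12-HETE, and Kdr had 0 and 1 against 1 and 1, so neither fell. The endothelial sum was thus also lower in both 12-HETE libraries than in both vehicle libraries, through Cdh5 alone. The part of this sum in the results was not tested. The overexpressed gene Adar had 2 and 8 counts in the vector libraries against 181 and 140 in those overexpressing ADAR1 p150, and 5 to 7 counts in the vehicle and 12-HETE libraries. Where exons of a coding and a non-coding gene overlapped on opposite strands (402 pairs), the larger count was the non-coding one in 80.6%. The count of any gene, members included, may thus hold reads of another transcript.

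Of the 7 members, 5 had fewer normalised counts in both 12-HETE libraries than in both vehicle libraries, namely Ifi27, Ifitm3, Isg20, Bst2 and Ifi35. The same 5 members had fewer in both ADAR1 p150 libraries than in both vector libraries. Among all 6901 genes tested, this order was found for 30.5% with 12-HETE and for 26.6% with ADAR1 p150. The genes tested leave out Bst2, Ifitm1 and Ifitm2 for their low counts, so these shares and that of the 7 members cover unlike sets. The members without this order were Ifitm1, which had 0 counts in all libraries, and Ifitm2, whose groups overlapped in both comparisons. In such bulk libraries, fewer cells that express a gene and less RNA per cell cannot be told apart. A minimum mean count of 10 over the 8 libraries left 4 members for the test, and Bst2 and Ifitm2 were below it. In the plot of normalised counts by library, the libraries of each treatment can be set against their own controls.

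**Figure D1:**
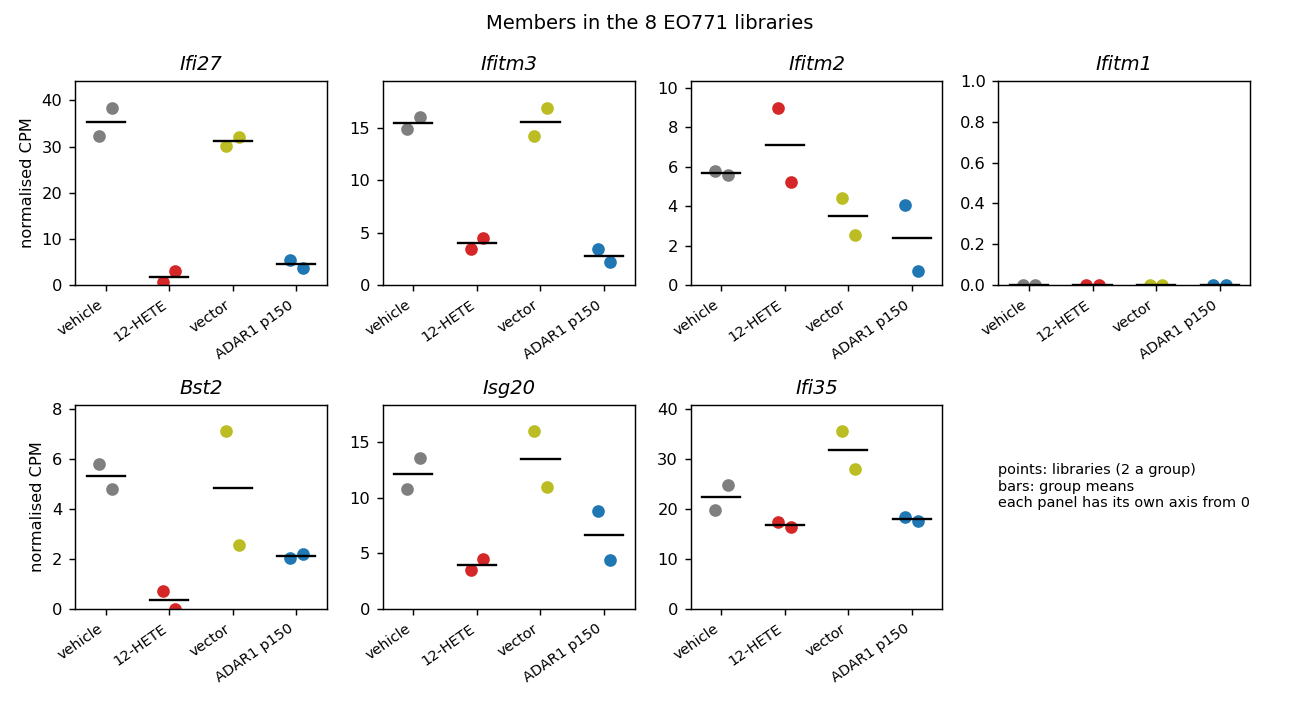
Normalised CPM (vertical axis, from 0, on a separate scale in each panel) of the 7 members in the 4 groups. Points are single libraries and bars are means of 2 libraries; Ifi27 had 32.3 and 38.5 CPM with vehicle against 0.693 and 2.98 with 12-HETE, and Ifitm1 was at 0 throughout.

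The ratio of a treated to a control group was tested in edgeR (quasi-likelihood, Benjamini-Hochberg adjustment), and calls needed an adjusted p under 0.05 together with a change of at least 2-fold. With 12-HETE, 3 of the 4 members tested were called lower (Ifi27, Ifitm3 and Isg20), beside 8.25% of all genes tested. With ADAR1 p150, 2 of the 4 were called lower (Ifi27 and Ifitm3), beside 4.69% of all genes tested. Over all genes tested, the 2 medians of the log2 fold change were 0.0044 (12-HETE) and 0.07 (ADAR1 p150). Ifi27, Ifitm3 and Isg20 passed the minimum through the groups in which they were higher, the control groups, so these counts describe the members tested and are no support for a direction of the set.

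The IFITM genes Ifitm2, Ifitm1 and Ifitm3 lie within 55.9 kb of chromosome 7 (GRCm38, RefSeq), with Ifitm2 at chr7:140954837-140959686 on the minus strand, Ifitm1 at chr7:140967429-140969827 on the plus strand and Ifitm3 at chr7:141009590-141010744 on the minus strand. Bst2 lies at chr8:71534255-71537472 on the minus strand. Interferon acts on many of its targets through the interferon-stimulated response element (ISRE), which was searched as GAAANNGAA on both strands from 250 bases before to 50 bases after each RefSeq start site (GRCm38.p6). Of the 7 members, 6 had such a window in the RefSeq table, and the letters were present in those of Ifitm2, Ifitm3 and Bst2. They were present in 8.56% of all 32851 windows. The 3 windows are shown because they are the members' windows that hold the letters, and capitals mark the ISRE letters; they are Ifitm2 at chr7:140955912-140956211 (minus strand), Ifitm3 at chr7:141010695-141010994 (minus strand) and Bst2 at chr8:71537423-71537722 (minus strand).
Ifitm2: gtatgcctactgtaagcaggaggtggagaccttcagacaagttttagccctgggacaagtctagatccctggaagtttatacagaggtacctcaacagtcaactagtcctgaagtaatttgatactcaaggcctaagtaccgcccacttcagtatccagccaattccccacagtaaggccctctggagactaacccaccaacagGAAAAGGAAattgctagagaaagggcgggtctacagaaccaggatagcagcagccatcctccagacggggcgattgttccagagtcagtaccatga
Ifitm3: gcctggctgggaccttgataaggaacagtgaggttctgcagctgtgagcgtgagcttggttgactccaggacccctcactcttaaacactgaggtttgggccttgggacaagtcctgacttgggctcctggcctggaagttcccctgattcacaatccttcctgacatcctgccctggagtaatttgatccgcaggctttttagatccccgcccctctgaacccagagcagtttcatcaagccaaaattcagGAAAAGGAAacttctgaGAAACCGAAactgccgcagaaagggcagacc
Bst2: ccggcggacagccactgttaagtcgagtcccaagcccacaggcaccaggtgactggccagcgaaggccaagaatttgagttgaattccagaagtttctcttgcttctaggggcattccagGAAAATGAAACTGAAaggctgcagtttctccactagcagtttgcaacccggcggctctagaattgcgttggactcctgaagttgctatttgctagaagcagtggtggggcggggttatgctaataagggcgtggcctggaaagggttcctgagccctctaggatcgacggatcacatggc

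The match in Ifitm2 began 46 bases before the start site. Ifitm3 held 2 matches, which began 2 and 19 bases after the start site, and Bst2 held 2 that overlapped, 130 and 124 bases before it. The first match of Ifitm3 and that of Ifitm2 had the same 9 letters, GAAAAGGAA. The letters TTCNNNGAA, those of a STAT (GAS) site, which read the same on both strands, were present in the windows of Ifi35, Ifitm3, Bst2 and Isg20 and in 8.3% of all windows. In Ifitm3 the GAS letters TTCTGAGAA overlapped the second ISRE match. A match is a stretch of letters and not a measured binding site.

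Ifitm3, the best known restriction factor of the family, was lower with both treatments. It had 18 and 20 counts in the vehicle libraries, 5 and 6 in those given 12-HETE, 16 and 20 in the vector libraries and 5 and 3 in those overexpressing ADAR1 p150. Both treated groups were below both control groups with no overlap. Its mean was 15.5 ± 0.784 CPM (SD, n = 2) with vehicle against 3.97 ± 0.716 with 12-HETE, and 15.6 ± 1.92 with vector against 2.8 ± 0.848 with ADAR1 p150. The log2 fold change was -1.95 (SE 0.456, edgeR adjusted p = 0.00114) with 12-HETE, a level 3.87-fold lower. With ADAR1 p150 it was -2.42 (SE 0.491, edgeR adjusted p = 0.000274), 5.37-fold lower.

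Ifitm2, which encodes a close relative of Ifitm3 and lies in the same cluster, had 7 and 7 counts in the vehicle libraries, 13 and 7 in those given 12-HETE, 5 and 3 in the vector libraries and 6 and 1 in those overexpressing ADAR1 p150. The treated and control libraries overlapped in each comparison. Without a count minimum, its log2 fold change was 0.27 (SE 0.524, edgeR adjusted p = 0.896) with 12-HETE and -0.58 (SE 0.741, edgeR adjusted p = 0.84) with ADAR1 p150. A change of Ifitm2 was not detectable at this depth. Ifitm1 had 0 counts in every library, which allows up to 1.95 to 2.72 CPM per library (3 counts, counting error only). The longest identical run between transcripts was 69 bases for Ifitm2 and Ifitm3, 64 for Ifitm1 and Ifitm3 and 40 for Ifitm1 and Ifitm2, so reads within these runs could not be assigned to 1 gene. Among the other IFITM genes, Ifitm6, the neighbour of Ifitm3, was at 0 in every library, and Ifitm5, the bone member of the family, had 7 and 5 counts in the vehicle libraries, 7 and 15 in those given 12-HETE, 5 and 13 in the vector libraries and 14 and 5 in those overexpressing ADAR1 p150.

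Bst2, the tetherin gene, had 7 and 6 counts in the vehicle libraries, 1 and 0 in those given 12-HETE, 8 and 3 in the vector libraries and 3 and 3 in those overexpressing ADAR1 p150. The vehicle and 12-HETE libraries did not overlap, whereas the second vector library had as many raw counts as the ADAR1 p150 libraries. Normalised, Bst2 had 2.54 CPM in that vector library against 2.04 and 2.2 CPM with ADAR1 p150. Its mean count was below the minimum, and in a fit without a minimum its log2 fold change was -3.61 (SE 0.987, edgeR adjusted p = 0.00522) with 12-HETE, where 3.52% of 24375 genes were called lower. This call was lost without vehicle replicate 4 (log2 fold change -3.4, edgeR adjusted p = 0.0648) and without 12-HETE replicate 5 (-2.84, edgeR adjusted p = 0.118), and the estimate was -5.75 without 12-HETE replicate 4. DESeq2 gave no adjusted p for Bst2 with 12-HETE (unadjusted p = 0.0293) and did not call it. Summed over libraries, 13 counts with vehicle against 1 with 12-HETE gave a 17-fold higher share with vehicle, with an exact 95% interval from 2.55 to 722.2 that covers counting error only. With ADAR1 p150 the log2 fold change of Bst2 was -1.24 (SE 0.722, edgeR adjusted p = 0.447), with -0.31 without vector replicate 1 and -1.84 without vector replicate 2, and the share with vector was 2.25-fold that with ADAR1 p150 (exact 95% interval 0.762 to 7.41).

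Ifi27 was the member with the largest tested change in each treatment. It had 39 and 48 counts in the vehicle libraries, 1 and 4 in those given 12-HETE, 34 and 38 in the vector libraries and 8 and 5 in those overexpressing ADAR1 p150. The groups were far apart in both comparisons. Its mean was 35.4 ± 4.34 CPM (SD, n = 2) with vehicle against 1.84 ± 1.62 with 12-HETE, and 31.2 ± 1.38 with vector against 4.55 ± 1.25 with ADAR1 p150. The log2 fold change was -4.24 (SE 0.462, edgeR adjusted p = 4.89e-09) with 12-HETE, 18.9-fold lower. With ADAR1 p150 it was -2.74 (SE 0.393, edgeR adjusted p = 1.57e-06), 6.67-fold lower. The size of the 12-HETE change rests on few counts, since the log2 fold change was -3.54 without 12-HETE replicate 4 and -5.5 without 12-HETE replicate 5.

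**Figure D2:**
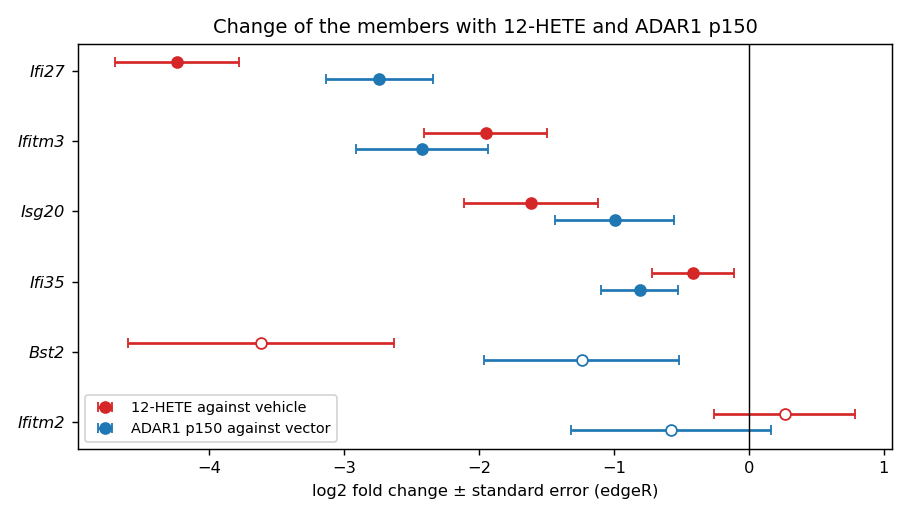
Log2 fold change (horizontal axis) of 6 members with 12-HETE against vehicle (red) and ADAR1 p150 against vector (blue); points are edgeR estimates and bars their standard errors, with 2 libraries per group. Hollow points (Bst2 and Ifitm2) come from the fit without a count minimum; Ifi27 lies farthest to the left in each filled colour, at -4.24 and -2.74.

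Ifi27 lies at chr12:103434189-103440245 on the plus strand of GRCm38 (RefSeq). In RefSeq the related gene Ifi27l2a runs across the whole of Ifi27 on the minus strand (chr12:103433873-103443680), whereas in GENCODE M21 it starts beyond Ifi27 (chr12:103442167-103443680). How the counting treated strand is not given in the sources used here. Without strand, the 2 genes could share reads, and with the setting opposite to that of the library, reads of each would be counted for the other. Neither was tested. Ifi27l2a, like Ifi27 a member of the ISG12 family, had 206 and 214 counts in the vehicle libraries, 30 and 30 in those given 12-HETE, 231 and 203 in the vector libraries and 66 and 80 in those overexpressing ADAR1 p150. It was lower in both treated libraries of each comparison. On the log2 scale 12-HETE changed it by -2.99 (SE 0.185, edgeR adjusted p = 5.25e-15) and ADAR1 p150 by -1.86 (SE 0.156, edgeR adjusted p = 1.74e-11). The longest identical run between the transcripts of the 2 genes was 11 bases. The third gene of the locus, Ifi27l2b, had 2 and 3 counts in the vehicle libraries, 2 and 1 in the vector libraries and 0 in all treated libraries. Apart from Ifi27, the 213 tested genes of chromosome 12 changed by a median of -0.42 (log2) under 12-HETE and of -0.33 under ADAR1 p150, against medians between -0.02 and 0.11 on chromosomes 7, 8 and 11, where the other members lie. The part of the chromosome-wide shift in the change of Ifi27 was not tested.

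**Figure D3:**
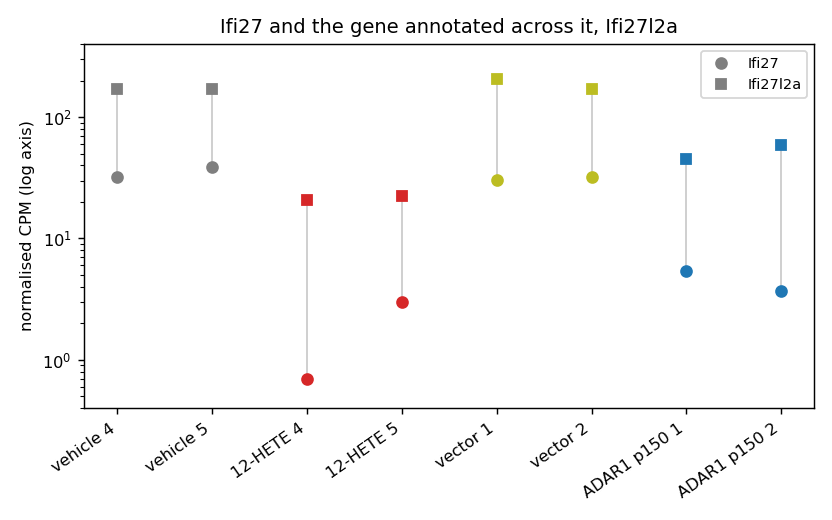
Normalised CPM on a log axis (vertical) of Ifi27 (circles) and Ifi27l2a (squares) in each of the 8 libraries (horizontal), with colours for the 4 groups and a grey line joining the 2 genes of a library. Ifi27l2a had 170.7 and 171.4 CPM with vehicle and 20.8 and 22.4 with 12-HETE; both genes are lower in every treated library than in its controls.

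Isg20, an exonuclease of viral RNA, lies at chr7:78913396-78920396 on the plus strand. It had 13 and 17 counts in the vehicle libraries, 5 and 6 in those given 12-HETE, 18 and 13 in the vector libraries and 13 and 6 in those overexpressing ADAR1 p150. Normalised, the treated libraries were below the controls in both comparisons, although the first ADAR1 p150 library, at 8.83 CPM, was close to the second vector library, at 11 CPM. The log2 fold change was -1.61 (SE 0.497, edgeR adjusted p = 0.0128) with 12-HETE, 3.06-fold lower, and -0.99 (SE 0.441, edgeR adjusted p = 0.0961) with ADAR1 p150. The 12-HETE call was lost without vehicle replicate 5 (edgeR adjusted p = 0.0843), without 12-HETE replicate 4 (edgeR adjusted p = 0.103) and in DESeq2 (adjusted p = 0.131).

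The study also used an Isg20 primer pair for quantitative PCR, shown because it fixes which piece of the gene such an assay reads. Both are written 5′ to 3′, with no letters in capitals.
Isg20 forward: tgggcctcaaagggtgagt
Isg20 reverse: cgggtcggatgtacttgtcata

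The pair bounds a product of 86 bases in the coding part of exon 2 of 4, at chr7:78914397-78914482 in GRCm38, and matched 6 of 6 annotated transcripts of Isg20 in GENCODE M21. The count table sums reads over the whole gene, so the same transcripts enter both measures. Aen, an exonuclease gene of the same family that lies 2187 bases to the left of Isg20, had 12 and 16 counts in the vehicle libraries, 3 and 2 in those given 12-HETE, 15 and 16 in the vector libraries and 7 and 10 in those overexpressing ADAR1 p150. Its log2 fold change was -2.61 (SE 0.58, edgeR adjusted p = 0.000653) with 12-HETE and -1.15 (SE 0.439, edgeR adjusted p = 0.0515) with ADAR1 p150. As with Isg20, only the 12-HETE change was called, and the difference between the 2 changes of Aen did not pass the test (edgeR adjusted p = 0.214).

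Ifi35, the leucine zipper member, had the smallest log2 fold change with 12-HETE among the 4 members tested. It had 24 and 31 counts in the vehicle libraries, 25 and 22 in those given 12-HETE, 40 and 33 in the vector libraries and 27 and 24 in those overexpressing ADAR1 p150. Its mean was 22.4 ± 3.5 CPM (SD, n = 2) with vehicle against 16.9 ± 0.64 with 12-HETE, and 31.7 ± 5.38 with vector against 18 ± 0.539 with ADAR1 p150. The log2 fold change was -0.41 (SE 0.305, edgeR adjusted p = 0.33) with 12-HETE. With ADAR1 p150 it was -0.81 (SE 0.286, edgeR adjusted p = 0.0341), which passed the p threshold but at 1.75-fold was below the 2-fold limit. That p missed the threshold in DESeq2 (adjusted p = 0.198), with a replicate block (adjusted p = 0.061), and without vector replicate 1 (0.253), ADAR1 p150 replicate 1 (0.0917) or ADAR1 p150 replicate 2 (0.115), all from edgeR except the first. Ifi35 lies at chr11:101448412-101458701 on the plus strand, 47 bases from Vat1, and its exons overlap the GENCODE gene Gm11626 on the other strand. Nmi, the binding partner of Ifi35, had 13 and 17 counts in the vehicle libraries, 5 and 7 in those given 12-HETE, 18 and 23 in the vector libraries and 4 and 4 in those overexpressing ADAR1 p150. Its log2 fold change was -1.49 (SE 0.472, edgeR adjusted p = 0.0153) with 12-HETE and -2.61 (SE 0.481, edgeR adjusted p = 7.82e-05) with ADAR1 p150, but the 12-HETE call was lost in DESeq2 (adjusted p = 0.158) and without vehicle replicate 5 or 12-HETE replicate 4.

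Levels were compared between members as CPM per kb of merged GENCODE exon. With vehicle the order was Ifi27 (24.1 ± 2.96, SD, n = 2), Ifitm3 (22.8 ± 1.16), Ifi35 (13 ± 2.03), Ifitm2 (8.71 ± 0.207), Isg20 (6.56 ± 1.08), Bst2 (5.87 ± 0.778) and Ifitm1 at 0. Ifi27 and Ifitm3 did not differ beyond their spread, nor did Isg20 and Bst2. With vector, Ifitm3 (23 ± 2.83), Ifi27 (21.3 ± 0.943) and Ifi35 (18.4 ± 3.12) led, with Ifitm3 and Ifi27, and Ifi27 and Ifi35, within the spread of each other, and Isg20 (7.26 ± 1.9), Bst2 (5.34 ± 3.58) and Ifitm2 (5.33 ± 2.06) followed within their spread. With 12-HETE the order changed to Ifitm2 (10.9 ± 4.08), Ifi35 (9.76 ± 0.371), Ifitm3 (5.85 ± 1.06), Isg20 (2.13 ± 0.385), Ifi27 (1.25 ± 1.1) and Bst2 (0.383 ± 0.542). Here Ifitm2 and Ifi35 did not differ beyond their spread, and neither did Ifi27 from Isg20 or Bst2. With ADAR1 p150, Ifi35 led (10.4 ± 0.312), and Ifitm3 (4.12 ± 1.25), Ifitm2 (3.67 ± 3.61), Isg20 (3.55 ± 1.69), Ifi27 (3.1 ± 0.854) and Bst2 (2.34 ± 0.125) followed, each within the spread of its neighbour in this order.

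Summed over the members, the vehicle libraries held 108 and 129 counts, the 12-HETE libraries 50 and 45, the vector libraries 121 and 110 and the ADAR1 p150 libraries 62 and 42. In normalised CPM the sums were 89.5 and 103.3 (vehicle) against 34.6 and 33.6 (12-HETE), and 107.5 and 93.1 (vector) against 42.1 and 30.8 (ADAR1 p150). The log2 ratio of the summed levels was -1.50 with 12-HETE and -1.46 with ADAR1 p150. Without Ifi35 the log2 ratio was -2.1 with 12-HETE and -1.89 with ADAR1 p150. In the plot of summed counts by member, Ifi27 and Ifi35 made up most of the control bars and Ifi35 was the broadest band of the treated bars.

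**Figure D4:**
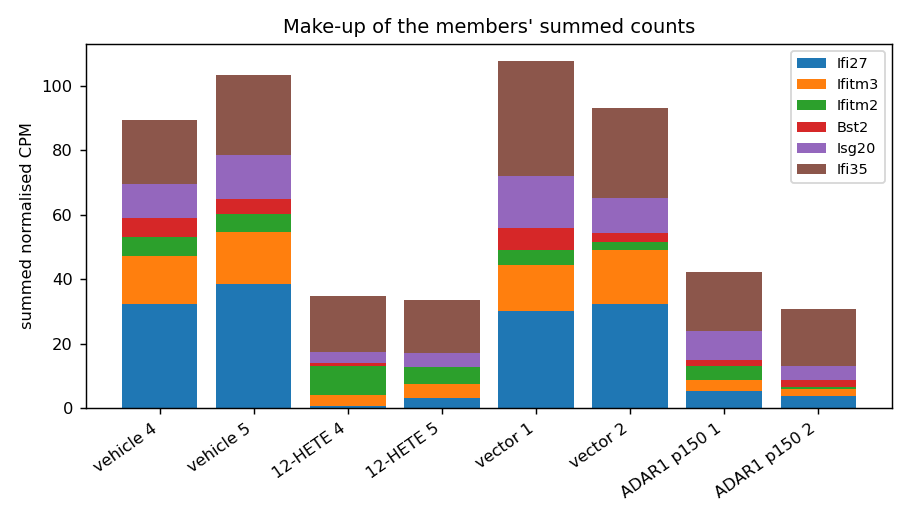
Summed normalised CPM (vertical axis, from 0) of the members in each of the 8 libraries (horizontal), stacked by member; Ifitm1, at 0, has no band. The control bars reach from 89.5 to 107.5 CPM and the treated bars from 30.8 to 42.1 CPM.

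The 2 treatments were compared by the difference between their effects, ADAR1 p150 against vector minus 12-HETE against vehicle, in the fit of all 8 libraries. None of the 4 members tested was called (0 of 4, beside 8.33% of all genes tested). DESeq2 called 0 too, but it gave no adjusted p for Ifitm3 and Isg20. At an unadjusted p under 0.05 there were also 0. Ifi27 was close to that limit, with an unadjusted edgeR p of 0.0502, and was below it on totals only (0.0286), without AY036118 (0.0457), with the crossed pairing (0.0497), and without vehicle replicate 4 (0.046), 12-HETE replicate 5 (0.0139) or ADAR1 p150 replicate 2 (0.039). For Ifi27 the difference was 1.5 on the log2 scale (SE 0.739, edgeR adjusted p = 0.182), with a normal 95% interval from 0.05 to 2.95, in the direction of a smaller change with ADAR1 p150. It was 0.8 without 12-HETE replicate 4 and 2.76 without 12-HETE replicate 5, with edgeR adjusted p of 0.591 and 0.0923. For Ifitm3 it was -0.47, with an interval from -1.9 to 0.95, for Isg20 0.62, from -0.71 to 1.95, and for Ifi35 -0.39, from -1.22 to 0.43. These intervals include differences of more than 2-fold for each of the 4 members. They are approximate, and that of Ifi27 excluded 0 although its unadjusted edgeR p was 0.0502. For Bst2, in the fit without a minimum, the difference was 2.38 (SE 1.33, edgeR adjusted p = 0.541), and for Ifitm2 it was -0.84 (SE 0.907, edgeR adjusted p = 0.947).

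The 2 control groups were also set against each other. None of the 4 members tested was called between vector and vehicle (0 of 4, beside 0.0435% of all genes tested), also 0 at an unadjusted p under 0.05 and 0 by DESeq2. The log2 fold changes were -0.19 for Ifi27 (SE 0.281), 0.005 for Ifitm3 (SE 0.36), 0.13 for Isg20 (SE 0.403) and 0.49 for Ifi35 (SE 0.282). The labels do not say whether the vehicle and vector libraries were prepared together, so batch and control type cannot be told apart.

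Relatives of the members by family or partner were taken as a list of 12 symbols, of which 11 matched the table, 9 had a count and 3 were tested. With 12-HETE all 3 tested, Ifi27l2a, Aen and Nmi, were called lower, and their median log2 fold change was -2.61. With ADAR1 p150, Ifi27l2a and Nmi were called lower and Aen was not, with a median of -1.86. Over all genes tested 8.25% and 4.69% were called lower. Aen and Nmi passed the count minimum through the control groups, so the counts and medians of this list are a description only.

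Of 43 listed symbols of interferon signalling and response, 42 matched the table and 13 were tested. With 12-HETE 6 were called lower and 0 higher, and the median log2 change of the 13 was -1. Several of the 13, among them Stat2, Tap1 and Oasl2, passed the count minimum through the control groups, so the counts and medians of this list too are a description only, and 8.25% (12-HETE) and 4.69% (ADAR1 p150) of all genes tested were called lower. The signal transducer Stat2 (-2.6, SE 0.477) and the transcription factor Irf7 (-2.34, SE 0.409) were among them, with edgeR adjusted p of 5.66e-05 and 2.81e-05. Also among them were Oasl2, an oligoadenylate synthetase-like gene (-3.74, SE 0.431, edgeR adjusted p = 1.59e-08), the peptide transporter Tap1 (-3.23, SE 0.611, edgeR adjusted p = 8.76e-05) and the MHC class I light chain B2m (-1.23, SE 0.236, edgeR adjusted p = 0.000104). With ADAR1 p150, Oasl2 (-3.56, SE 0.471), Tap1 (-2.76, SE 0.528) and Stat2 (-2.41, SE 0.583) were called lower, with edgeR adjusted p of 3.66e-07, 0.000125 and 0.00195, and only the overexpressed gene Adar was called higher (4.68, SE 0.315, edgeR adjusted p = 6.4e-14). The Stat2 call was lost without vector replicate 2 (edgeR adjusted p = 0.0823). The estimates of Tap1 and Oasl2 rest on few treated counts, and with ADAR1 p150 they were -4.39 and -3.11 without ADAR1 p150 replicate 1 and -2.06 and -4.16 without ADAR1 p150 replicate 2. With 12-HETE, Tap1 and Irf7 were at -2.63 and -2.95 without 12-HETE replicate 4 and at -4.19 and -1.94 without 12-HETE replicate 5. The median log2 change of the 13 with ADAR1 p150 was -0.29. Irf7 had a log2 fold change of -0.53 (SE 0.373, edgeR adjusted p = 0.326) with ADAR1 p150 and was not called.

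Genes whose pattern was most like that of the members were sought over the 8 libraries, by correlation with the mean of the 4 tested members on the log2(CPM + 1) scale, among 4378 other genes whose counts averaged at least 20. They were Gm35558 (Pearson r 0.995, Spearman rho 0.952), Gab1 (0.99 and 0.81), Mcph1 (0.99 and 0.976), 2900089D17Rik (0.988 and 0.976) and Gm36753 (0.986 and 0.929). The 8 points form a treated and a control cluster, so these values describe the shared step between them. Mcph1, for example, had 54 and 56 counts in the vehicle libraries, 9 and 11 in those given 12-HETE, 51 and 51 in the vector libraries and 14 and 9 in those overexpressing ADAR1 p150. Gab1 had 103 and 105 counts in the vehicle libraries, 43 and 46 in those given 12-HETE, 91 and 90 in the vector libraries and 60 and 47 in those overexpressing ADAR1 p150.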

How the data were processed

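Raw counts per gene were deposited by the authors, who removed duplicates with prinseq, used STAR to align paired-end reads to GRCm38, and counted fragments with featureCounts. The strand setting is not given in the sources used here, the sample labels name another extraction and library kit than the methods, and the dose and time are from the methods. No column was normalised by the authors. A mean count of 10 across libraries was required, leaving 6901 of 49997 genes. Normalised CPM used TMM factors, and edgeR 4.0.16 (R 4.3.3) fitted all 8 libraries with 1 coefficient per group, without a replicate block. The SE of an edgeR log2 fold change is its absolute value divided by the square root of the quasi-likelihood F. Intervals take a normal multiple of that SE and are approximate. DESeq2 1.42.0 was an alternative, as were RLE factors, totals only, leaving out AY036118, other count minimums, 4 libraries, the replicate block and leaving out each library. Bst2 and Ifitm2 were fitted without a minimum (24375 genes), an alternative chosen after seeing the data. The procedure was tested on simulated data. The members and lists were chosen with earlier results of these data known. Named genes were all members, the called genes of the lists of relatives and of interferon genes (at most 6 per list and comparison, by adjusted p), overlapping and neighbouring genes, and the 5 most like the members; AY036118 was chosen after its values were seen, and some genes that the rule names are not reported here. Replicates differed by more than sampling noise (mean chi-square per gene 1.32 to 1.54) and were counted separately.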

Additional observations from a re-analysis of the deposited data

Results flagged for a closer look

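The effects of the 2 treatments differed by the test of the difference itself (edgeR, ADAR1 p150 effect minus 12-HETE effect) for 3 of the named genes, none of which was a member. Adar differed by 4.50 on the log2 scale (SE 0.793, edgeR adjusted p = 0.000114), and is the overexpressed gene, with a range of 3.86 to 5.74 when each library was left out in turn. It passed the count minimum only through the ADAR1 p150 libraries (181 and 140 counts), so this value describes the overexpression only. Ifi27l2a, annotated across Ifi27, differed by 1.13 (SE 0.259, edgeR adjusted p = 0.00216), and its own log2 changes were -2.99 with 12-HETE and -1.86 with ADAR1 p150. Irf7 differed by 1.81 (SE 0.569, edgeR adjusted p = 0.0254), but the adjusted p was 0.141 in DESeq2, and in edgeR it missed the threshold without vehicle replicate 5 (0.0713), 12-HETE replicate 5 (0.154), vector replicate 2 (0.113) or ADAR1 p150 replicate 2 (0.172).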

How the results depend on the processing

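Members called lower were 2 with 12-HETE and 2 with ADAR1 p150 in DESeq2, where Isg20 was lost (adjusted p = 0.131), and 4 with 12-HETE without a count minimum, where Bst2 was added. With at least 10 counts in every library 0 members were called in each treatment, since Ifi35 was then the only member tested. The summed log2 ratio with 12-HETE was -1.70 on totals only, a scaling that moved the median of all genes to -0.2, and -2.1 without Ifi35; with ADAR1 p150 it was -1.89 without Ifi35. Leaving out each library gave 2 to 3 and 2 to 2 members called, summed log2 ratios of -1.6 to -1.39 and -1.71 to -1.25, and log2 fold changes of -5.5 to -3.54 and -3.05 to -2.49 for Ifi27 and of -2.13 to -1.78 and -2.77 to -2.16 for Ifitm3. Between the control groups it gave -0.05 to 0.165 for the sum, -0.13 to 0.13 for Ifitm3, -0.15 to 0.38 for Isg20 and -0.96 to 0.57 for Bst2, and for Ifitm2 -0.12 to 0.57 with 12-HETE and -2.19 to 0.11 with ADAR1 p150. On totals only, Ifitm3 turned to -0.0226 in vector against vehicle. The cause was not tested.

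Same-numbered libraries did not deviate together (correlation -0.08 for 12-HETE and -0.11 for ADAR1 p150). Sampling noise at this depth could hide a shared culture or batch, so whether they were paired is not settled. With the replicate block 3 and 2 members were called, Ifi27 turned to 0.0475 and Bst2 to 0.0574 in vector against vehicle, and the p of Ifi35 with ADAR1 p150 missed the threshold (log2 fold change -0.81). A crossed pairing for ADAR1 p150, chosen after seeing the data, called 2 members. The fit of 4 libraries was not run for the difference between the effects. Depth limits Bst2, Ifitm1 and Ifitm2 most.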
